A study of Mus musculus with 8 samples.

Results

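Apolipoproteins are the protein coat of the particles that carry lipid in blood, and the 10 genes described here encode 8 of them and 2 proteins that act with them: Apoa1, Apoa2, Apoa4, Apoa5, Apob, Apoc1, Apoc3, Apoe, Mttp and Lcat. They were taken by symbol from a table of 54532 genes measured in mouse liver, where each symbol stood once. Levels are FPKM, the fragments on a gene divided by its length and by the size of the library. All 10 passed the minimum for testing, a mean over the 8 livers of 0.1 FPKM or more, which left 16645 genes. RNA sequencing had been performed on 8 livers. Of these, 4 came from METTL3-HKD mice and 4 from METTL3-Flox mice. Both groups had undergone 1 h of partial warm ischemia and 6 h of reperfusion, so that no unoperated liver and no wild-type liver enters the comparison.

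METTL3 is the catalytic subunit of the complex that writes N6-methyladenosine on mRNA. METTL3-HKD mice are given as METTL3 flox/- with Alb-iCre, a recombinase driven by the albumin promoter of the hepatocyte, and the loxP sites surround exon 4. METTL3-Flox mice, from the same litters, are given as flox/flox. The groups therefore also differed in the number of floxed alleles, and neither the second allele of METTL3-HKD mice nor the recombinase status of METTL3-Flox mice is spelled out. The knockdown is partial by design, since mice with the complete hepatocyte knockout died young. The age and sex of these animals were not given beside their labels. Mettl3 itself stood at 1.33 ± 0.181 FPKM (SD, n = 4) in METTL3-HKD livers and 1.499 ± 0.282 FPKM (SD, n = 4) in METTL3-Flox livers, on 95 to 159 reads a liver. Its log2 fold change was -0.16 (SE 0.17; adjusted p = 0.556, limma with Benjamini-Hochberg adjustment), and the groups overlapped. These gene-level values, which also count transcripts of other liver cells and of any intact allele, do not check the genotype labels. The paper reports, from its own check across organs, a loss of METTL3 specific to the liver of METTL3-HKD mice. That check was not repeated here.

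Lipid leaves the hepatocyte mainly in very low density lipoprotein (VLDL). One molecule of apolipoprotein B forms the backbone of each VLDL particle, and the microsomal triglyceride transfer protein encoded by Mttp loads lipid onto it as it is made. High density lipoprotein (HDL) is built around apolipoproteins A-I and A-II, and lecithin-cholesterol acyltransferase, encoded by Lcat, esterifies the cholesterol that HDL takes up. The small exchangeable apolipoproteins C-I, C-III, A-IV, A-V and E move between particles and set how fast triglyceride is hydrolysed and how remnants are cleared by receptors.

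Several of these genes are neighbours. Apoa1, Apoc3, Apoa4 and Apoa5 lie within 43.3 kb of chromosome 9 (GRCm38, chr9:46228580-46271919), with Apoc3 on the minus strand and the other three on the plus strand. Apoc1 (chr7:19689481-19692660) and Apoe (chr7:19696109-19699188) lie side by side on the minus strand of chromosome 7. Apoa2 is on chromosome 1 (chr1:171225054-171226379), Apob on chromosome 12 (chr12:7977648-8016835), Mttp on chromosome 3 (chr3:138089854-138144968) and Lcat on chromosome 8 (chr8:105939551-105943382). The coordinates in the deposited table equal those of the GENCODE M21 annotation for all 10. Apob has the longest gene model, with 13934 exon bases in the table against 537 for Apoa2, so that a level per kilobase and a share of reads rank these genes differently.

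The DNA just before the start of 4 of these genes is shown, because the results turn on them: the structural genes of HDL (Apoa1) and VLDL (Apob), a neighbour of Apoa1 whose ratio to it is described (Apoa5), and the gene with the clearest difference (Lcat). Each run holds 200 bases 5′ to 3′ on the gene's own strand, from the RefSeq promoter windows of GRCm38.p6. It ends right before the start of the gene in the deposited table, except for Lcat, where it ends 20 bases further upstream. Capitals mark 2 motifs searched on both strands: CAAAG, a short core of the site bound by HNF4, and TATAAA, the TATA box. A capital run that reads as the reverse complement is a match on the other strand. The positions are chr9:46228380-46228579 for Apoa1, chr9:46268433-46268632 for Apoa5, chr12:7977448-7977647 for Apob and chr8:105943403-105943602 for Lcat.
Apoa1: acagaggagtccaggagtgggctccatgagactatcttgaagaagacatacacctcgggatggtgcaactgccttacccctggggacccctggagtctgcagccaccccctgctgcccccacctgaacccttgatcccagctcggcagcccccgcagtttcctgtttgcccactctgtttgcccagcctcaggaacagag
Apoa5: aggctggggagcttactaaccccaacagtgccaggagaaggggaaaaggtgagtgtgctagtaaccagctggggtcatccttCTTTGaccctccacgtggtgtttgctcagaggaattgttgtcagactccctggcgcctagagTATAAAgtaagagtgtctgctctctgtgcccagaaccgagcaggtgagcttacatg
Apob: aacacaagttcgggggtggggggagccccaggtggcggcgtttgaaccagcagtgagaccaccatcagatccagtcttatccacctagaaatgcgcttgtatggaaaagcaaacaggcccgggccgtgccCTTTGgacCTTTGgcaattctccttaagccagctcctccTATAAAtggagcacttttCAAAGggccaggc
Lcat: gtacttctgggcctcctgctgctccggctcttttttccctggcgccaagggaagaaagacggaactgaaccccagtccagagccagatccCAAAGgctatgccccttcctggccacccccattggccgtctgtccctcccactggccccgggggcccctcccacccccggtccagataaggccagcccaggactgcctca
Apob holds CAAAG at 3 places and a TATAAA, Apoa5 holds both motifs, Lcat holds CAAAG alone, and Apoa1 holds neither in these letters. Windows of 300 bases, from 250 before to 50 after the RefSeq start, were matched for 8 of the 10 genes (all but Apoc1 and Apoc3). CAAAG was found in 6 of these 8, against 53.9% of all 32851 windows, and TATAAA in 3 of 8, against 13.6%. These are unlike units, since the 8 are counted per gene and the shares per window. Apoe had 3 windows and Apoa2 and Apoa5 had 2 each, and a gene with more windows has more chances to match. A match of letters is a description of the sequence and not a binding site.

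Together the 10 genes took 3.36 ± 0.211% of the reads on genes in METTL3-HKD livers and 3.43 ± 0.218% in METTL3-Flox livers (SD, n = 4 each), and the ranges overlapped (3.17% to 3.66% against 3.27% to 3.75%). As FPKM per length, the order of mean levels was Apoa2, Apoe, Apoa1, Apoc1, Apoc3, Apob, Apoa5, Lcat, Apoa4 and Mttp in both groups. The steps from Apoa1 to Apoc1, from Apoc1 to Apoc3, from Apoc3 to Apob and from Apoa4 to Mttp held in 4 of 4 livers of each group. Neighbours within the leading 3 (Apoa2, Apoe and Apoa1) changed place in 1 of 4 livers of each group, as did Apob and Apoa5. Lcat stood below Apoa5 in 4 of 4 METTL3-HKD livers but in 2 of 4 METTL3-Flox livers. The place of Apoe depends on the length used, because its table length of 2138 bases spans all exons while its principal transcript has 1128 bases. Per base of the principal transcript, Apoe stood above Apoa2 in 4 of 4 livers of each group.

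**Figure D1:**
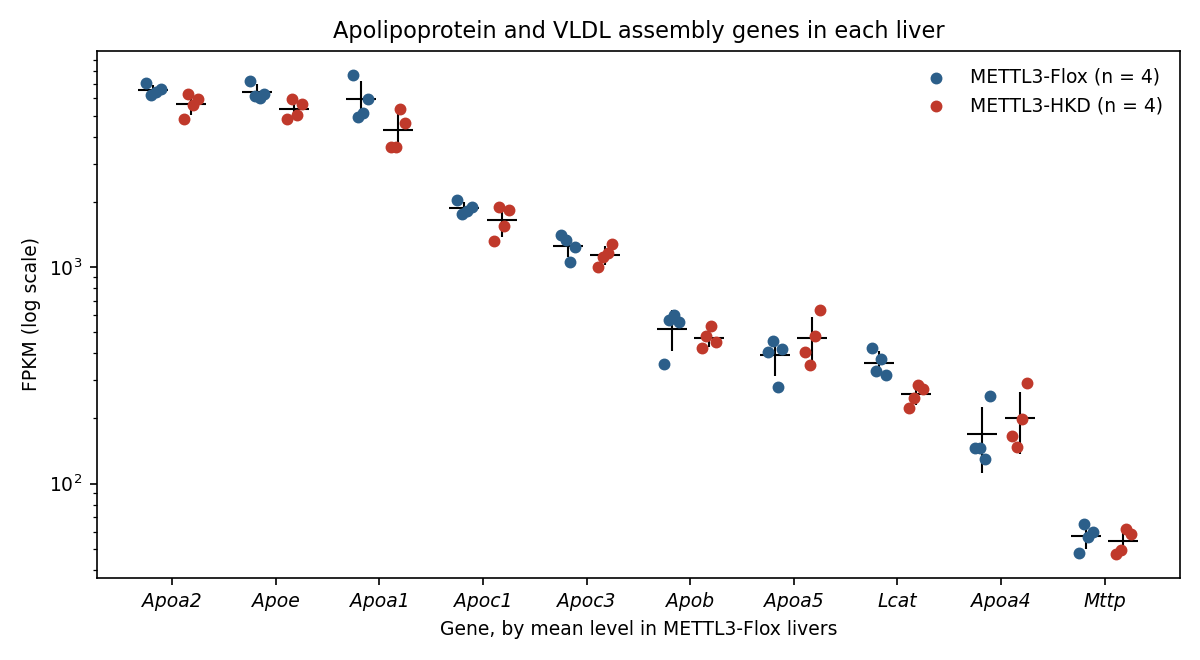
FPKM on a log scale of the 10 genes in each liver, ordered by the mean in METTL3-Flox livers; each point is 1 liver and the black marks give the mean ± SD (n = 4 per group). The lowest point is Mttp at 47.3 FPKM and the highest Apoa1 at 7726 FPKM, and the red and blue points are fully apart for Lcat and Apoe alone.

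Compared with METTL3-Flox livers, METTL3-HKD livers showed lower Lcat mRNA, and no other of the 10 genes passed the test. Lcat fell to 0.716 times its METTL3-Flox level. The other 9 had log2 fold changes between -0.47 (Apoa1) and 0.25 (Apoa4 and Apoa5) with adjusted p of 0.230 or more. With limma on log2(FPKM + 0.1) and Benjamini-Hochberg adjustment over 16645 genes, 1 of 10 was called lower at an adjusted p under 0.05, where 6.63% of all genes tested were, and 0 of 10 were called higher, where 9.05% were. At an unadjusted p under 0.05 the count was also 1. The median log2 fold change of the 10 was -0.17, against -0.00 over all genes tested. With 10 genes, 1 call is near the share among all genes.

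Among the HDL genes of the 10, Lcat differed most clearly. It was at 224, 249, 286 and 274 FPKM in the METTL3-HKD livers and at 423, 331, 374 and 316 FPKM in the METTL3-Flox livers. Every METTL3-HKD liver lay below every METTL3-Flox liver, a pattern that 9.95% of all genes tested also had. The log2 fold change was -0.48 (SE 0.13, 95% interval -0.78 to -0.18; adjusted p = 0.0415, limma with Benjamini-Hochberg adjustment), and the two-sided exact permutation test of the 70 arrangements gave p = 0.0286, the smallest value that 4 against 4 livers allow. That call was fragile. It passed in 7 of 19 other settings, among them median-of-ratios scaling, which repeated the main fit. Leaving out any 1 liver except METTL3-HKD 3 took the adjusted p above 0.05 (up to 0.105), with log2 fold changes from -0.54 to -0.40. As a share of the reads on genes, Lcat ran from 0.0350% to 0.0390% in METTL3-HKD livers and from 0.0416% to 0.0482% in METTL3-Flox livers, again without overlap (log2 fold change -0.27; adjusted p = 0.0899, limma).

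Apoa1, which encodes the main protein of HDL and the activator of the Lcat enzyme, had a difference of the same size with more spread. Its levels were 3592, 3595, 5338 and 4646 FPKM in METTL3-HKD livers against 7726, 4936, 5163 and 5966 FPKM in METTL3-Flox livers. METTL3-HKD 3 stood above both METTL3-Flox 2 and METTL3-Flox 3, so the groups overlapped, and METTL3-Flox 1 was well above all others. The log2 fold change was -0.47 (SE 0.25, 95% interval -1.03 to 0.10; adjusted p = 0.230, limma), which leaves a fall to 0.488 times or a rise to 1.07 times within the interval. Without METTL3-Flox 1 it was -0.34 (adjusted p = 0.356).

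Apoa2 encodes the second protein of HDL. It was at 4805, 6308, 5579 and 5983 FPKM in METTL3-HKD livers and at 7057, 6235, 6414 and 6642 FPKM in METTL3-Flox livers. METTL3-HKD 2 lay above METTL3-Flox 2, and the other METTL3-HKD livers lay below all 4 METTL3-Flox livers. The log2 fold change was -0.22 (SE 0.21, 95% interval -0.71 to 0.26; adjusted p = 0.511, limma).

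The genes that build VLDL showed no difference beyond their spread. Apob was at 424, 480, 531 and 448 FPKM in METTL3-HKD livers and at 356, 567, 599 and 557 FPKM in METTL3-Flox livers. The lowest Apob level of all 8 livers was that of METTL3-Flox 1, while the other 3 METTL3-Flox livers lay above every METTL3-HKD liver. The log2 fold change was -0.12 (SE 0.18, 95% interval -0.53 to 0.29; adjusted p = 0.691, limma), and without METTL3-Flox 1 it was -0.29 (adjusted p = 0.135). Mttp was at 47.3, 49.4, 61.4 and 58.4 FPKM in METTL3-HKD livers and at 47.6, 64.8, 56.3 and 59.9 FPKM in METTL3-Flox livers. Its groups interleaved, with a log2 fold change of -0.08 (SE 0.13, 95% interval -0.36 to 0.21; adjusted p = 0.712, limma). METTL3-Flox 1 thus joined the highest Apoa1 to the lowest Apob. Its ratio of Apoa1 to Apob FPKM was 21.7, and that of the other 7 livers lay between 7.49 and 10.7.

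Apoe, the ligand through which remnant particles are bound by receptors of the low density lipoprotein family, gave groups that did not overlap without passing the adjusted test. Its levels were 4841, 5979, 5039 and 5628 FPKM in METTL3-HKD livers and 7244, 6189, 6048 and 6322 FPKM in METTL3-Flox livers. The highest METTL3-HKD liver and the lowest METTL3-Flox liver were 5979 and 6048 FPKM, so the gap between the groups was narrow. The exact permutation test gave p = 0.0286, not adjusted for the number of genes, and the log2 fold change was -0.27 (SE 0.21, 95% interval -0.74 to 0.21; adjusted p = 0.424, limma). Without limma's mean-variance trend the SE was 0.11 and the adjusted p was 0.159. As a share of the reads on genes the Apoe groups overlapped, at 1.09% to 1.48% in METTL3-HKD livers and 1.24% to 1.36% in METTL3-Flox livers. Apoe and Lcat were the 2 of 10 genes without overlap in FPKM. In both, every METTL3-HKD liver lay below every METTL3-Flox liver, as in 9.95% of all genes tested.

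Apoc1 and Apoc3 encode small apolipoproteins that slow the clearance of triglyceride-rich particles. Apoc1, next to Apoe, was at 1314, 1883, 1541 and 1837 FPKM in METTL3-HKD livers and at 2039, 1751, 1808 and 1898 FPKM in METTL3-Flox livers. Apoc3 was at 995, 1108, 1163 and 1272 FPKM in METTL3-HKD livers and at 1400, 1331, 1059 and 1234 FPKM in METTL3-Flox livers. Both pairs of groups overlapped, with log2 fold changes of -0.20 for Apoc1 (95% interval -0.59 to 0.19; adjusted p = 0.460, limma) and -0.14 for Apoc3 (95% interval -0.49 to 0.20; adjusted p = 0.554, limma).

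Apoa4 and Apoa5 were the 2 genes with higher means in METTL3-HKD livers, and neither passed the test. Apoa5, which promotes the hydrolysis of plasma triglyceride, was at 404, 353, 482 and 632 FPKM in METTL3-HKD livers and at 406, 458, 279 and 418 FPKM in METTL3-Flox livers. Apoa4, carried on HDL and on intestinal particles, was at 166, 147, 198 and 290 FPKM in METTL3-HKD livers and at 146, 146, 129 and 254 FPKM in METTL3-Flox livers. The highest Apoa5 and Apoa4 levels were both in METTL3-HKD 4, and METTL3-Flox 4 stood far above the rest of its group for Apoa4. The log2 fold change was 0.25 for each gene (95% interval -0.24 to 0.74 for Apoa5 and -0.34 to 0.84 for Apoa4; adjusted p = 0.465 and 0.547, limma). With 1 liver left out, the Apoa5 value ran from 0.09 (without METTL3-HKD 4) to 0.37 (without METTL3-HKD 2) and the Apoa4 value from 0.06 (without METTL3-HKD 4) to 0.46 (without METTL3-Flox 4). Without METTL3-Flox 3 they were 0.10 and 0.14. Reads of Apoa4 and Apoa5 could in part belong to antisense genes, since the strand setting of the counting is not given in the sources used here: 34.9% of the exon bases of Apoa4 lie opposite Gm47528, and 20.8% of those of Apoa5 opposite Gm47544. Those 2 genes were at 0.143 and 0 FPKM.

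The scale of the libraries bears on the sign of these small differences. The deposited FPKM give an all-gene median near 0, while scaling each library to its reads on genes moves the median over all genes tested to 0.20 on the log2 scale. On that second scale 4 of the 10 genes had negative and 6 positive log2 fold changes, against 8 and 2 as deposited, and Apob, Apoc1, Apoc3 and Mttp changed sign. As deposited, 8 of the 10 genes lay below the median over all genes and Apoa4 and Apoa5 above it. The median of the 10 was 0.17 below it. By definition, as many of all genes lie below that median as above it. Scaling adds nearly the same amount to the log2 fold change of every gene and to that median. The same split on the second scale, with the median of the 10 at 0.15 below, is therefore no separate support. The 100 genes with the most reads took 38.3% to 45.5% of reads in METTL3-HKD livers and 43.9% to 51.5% in METTL3-Flox livers. With libraries scaled to the reads outside those 100 genes, the median over all genes tested was 0.07. Beyond this, their part in the shift was not tested.

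**Figure D2:**
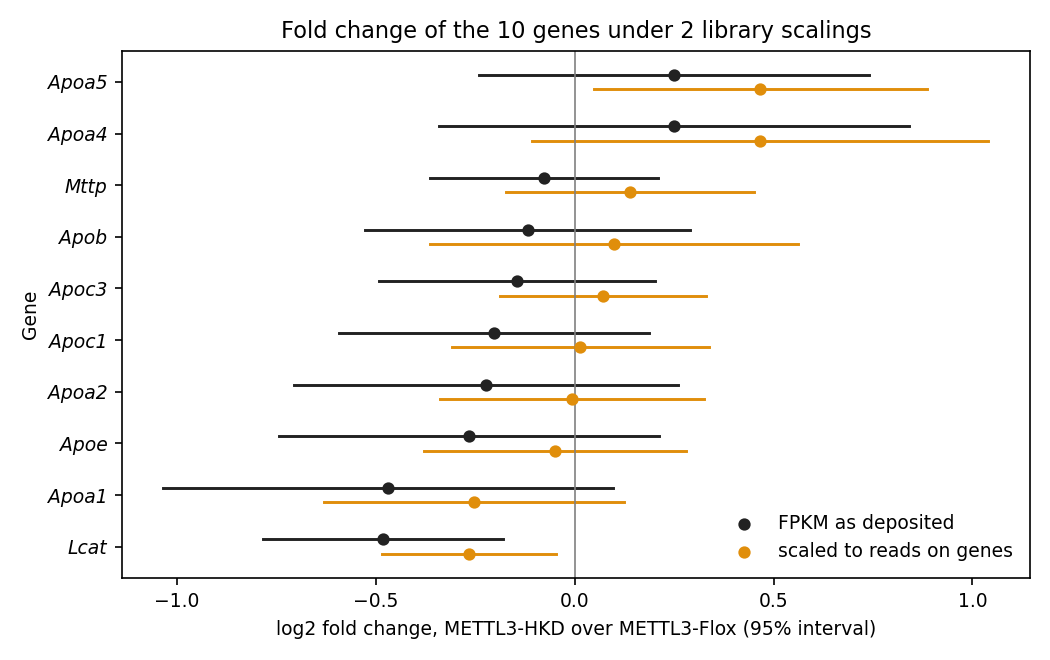
Log2 fold change of METTL3-HKD over METTL3-Flox livers for the 10 genes with 95% intervals from limma (4 livers per group), for the FPKM as deposited (black) and for libraries scaled to reads on genes (orange). Every orange point lies to the right of its black point, and the Lcat interval lies below 0 on both scales (-0.78 to -0.18 and -0.48 to -0.05).

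The proportions between neighbouring genes were compared within each liver, and none of the 7 pairs differed beyond the spread between livers. These ratios, which no scaling of the libraries can change, were added after the values of the genes had been seen. Apoa5 amounted to 11.2%, 9.83%, 9.03% and 13.6% of the Apoa1 level of the same liver in METTL3-HKD livers and to 5.25%, 9.27%, 5.41% and 7.01% in METTL3-Flox livers. One METTL3-Flox liver reached into the METTL3-HKD range. Apoa4 amounted to 4.62%, 4.09%, 3.71% and 6.24% of Apoa1 in METTL3-HKD livers and to 1.89%, 2.95%, 2.51% and 4.26% in METTL3-Flox livers. Both ratios were 1.65 times higher in METTL3-HKD livers (log2 difference 0.72 each), with two-sided exact permutation p = 0.0571 for Apoa5 and 0.0857 for Apoa4 (both 0.15 after Benjamini-Hochberg adjustment over the 7 pairs of neighbouring genes). Apoc3 over Apoa1 was 1.25 times higher (exact permutation p = 0.0571, adjusted 0.15). The ratio of Apoa5 to Apoa4 had the same group mean (log2 difference 0.00, exact permutation p = 1), but it ran from 1.65 to 3.14 in METTL3-Flox livers and from 2.18 to 2.43 in METTL3-HKD livers. For Apoc1 over Apoe the log2 difference was 0.06 (exact permutation p = 0.343). Without METTL3-Flox 1 the log2 differences for Apoa5 and Apoa4 over Apoa1 were 0.61 and 0.53.

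**Figure D3:**
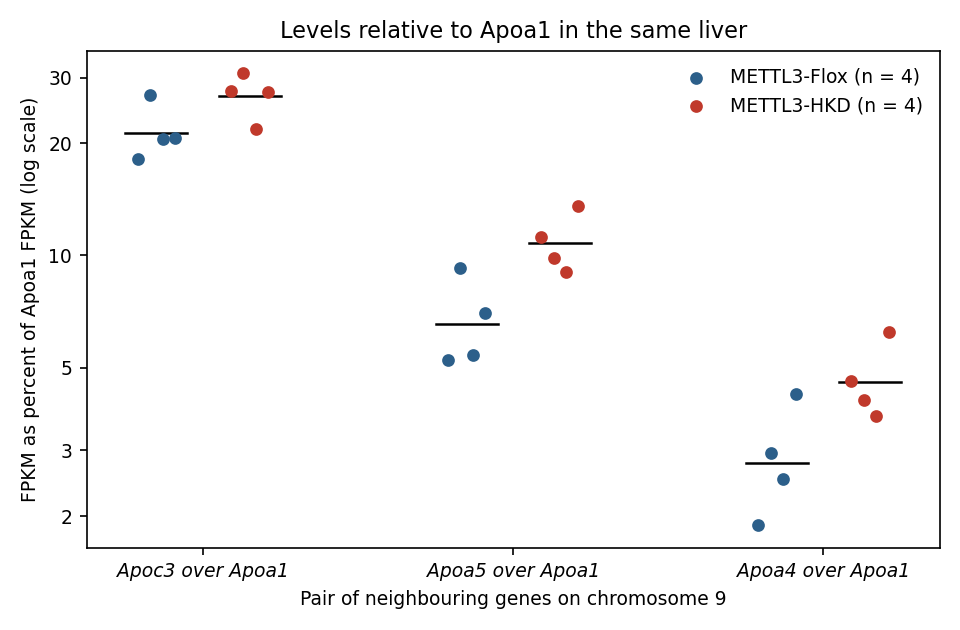
FPKM of Apoc3, Apoa5 and Apoa4 as a percentage of the Apoa1 FPKM of the same liver, on a log scale, with 1 point per liver and a line at the geometric mean of each group (n = 4 per group). The METTL3-HKD points lie mostly above the METTL3-Flox points in all 3 columns, and the groups overlap in each.

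Some of the 10 genes varied together from liver to liver and others did not. After the group means were removed from log2 FPKM, Apoa2 and Apoc1 had r = 0.98 over the 8 livers, Apoc1 and Apoe 0.90, and Apoa2 and Apoe 0.89. Apoa5 followed Apoc3 (0.82) and Apoa4 (0.73), Lcat followed Apoa1 (0.77), and Mttp followed Apob (0.74). Apob was negative with 7 of its 9 partners, most with Apoe (-0.56). Over all 45 pairs, 4 were above 0.8 and 12 were negative. These correlations are a description over 8 libraries that share a scale, with no test. Searched over the 10694 genes averaging 1 FPKM or more, the genes most like Apoa2 and Apoc1 were each other (0.98). For Lcat the closest gene was Inhbc (0.98), for Apob Rreb1 (0.99), for Mttp Per3 (0.99), for Apoa1 Sat2 (0.99), for Apoe Mpv17l2 (0.97), for Apoc3 Ube2e2 (0.99), for Apoa5 Tmem41b (0.99) and for Apoa4 Sec24d (0.97). Each is the highest of 10694 values over 8 livers, which can be high by selection alone, so no shared control is read from it.

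**Figure D4:**
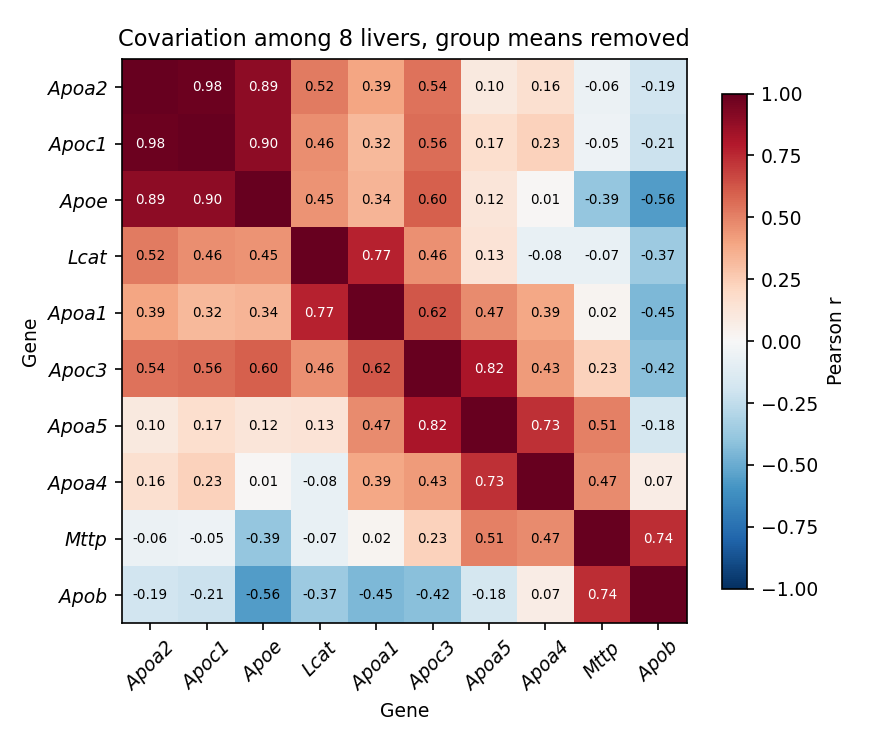
Pearson correlation between the 10 genes over the 8 livers after the group means of log2 FPKM were removed; red is positive and blue negative. Apoa2, Apoc1 and Apoe form a block with r of 0.89 to 0.98, and Apob pairs with Mttp (0.74) and runs against Apoe (-0.56).

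Sampling of reads adds little to this spread. Each of the 10 genes had between 3572 and 236249 reads in a liver, for which counting error is at most 1.67%, whereas the coefficient of variation between livers of a group lay between 5.39% (Apoa2 in METTL3-Flox livers) and 34.0% (Apoa4 in METTL3-Flox livers). Counting error leaves out the steps of library preparation.

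Other apolipoprotein and HDL-associated genes were set beside the 10. Of 20 tested, 7 were lower in METTL3-HKD livers and 0 higher, with a median log2 fold change of -0.67. Among all genes tested, 6.63% were lower and 9.05% higher. Apof, whose product inhibits lipid transfer between particles, was at 320, 462, 454 and 496 FPKM in METTL3-HKD livers and at 904, 771, 768 and 738 FPKM in METTL3-Flox livers. No METTL3-HKD liver reached the METTL3-Flox range (log2 fold change -0.89, SE 0.16; adjusted p = 0.0111, limma). Saa4, a constitutive serum amyloid A carried on HDL, was at 150, 174, 240 and 176 FPKM against 579, 341, 455 and 322 FPKM, and these groups were also fully apart (-1.18, SE 0.22; adjusted p = 0.0112, limma). Apom, the HDL carrier of sphingosine-1-phosphate, fell by 0.71 (adjusted p = 0.0202, limma) and Apon by 0.63 (adjusted p = 0.0281, limma) on the log2 scale. The remaining 3 were Apol9b, Apol9a and Apol7a of the intracellular apolipoprotein L family, with log2 fold changes of -1.80, -1.70 and -1.49. Apol9a and Apol9b are near copies, and reads may have been split between them. The count of 7 was the same with libraries scaled to reads on genes. Over the 19 other settings it lay between 3 and 8, the lowest without METTL3-Flox 3. Saa1 and Saa2, the acute-phase serum amyloids, had log2 fold changes of -0.74 and -0.71 that did not pass (adjusted p = 0.145 and 0.159, limma), and their near-identical sequences leave the split between them uncertain. Apoc2, the activator of lipoprotein lipase, was listed at 1.13 FPKM on average. It shares 79.5% of its exon bases with Gm44805 on the same strand, so that no level is read from it.

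Most genes of the machinery that lipidates and exports VLDL did not pass the adjusted test. Of 30 genes tested besides Apob and Mttp, 3 rose and 1 fell, with a median log2 fold change of -0.12. Both counts are near or under the shares among all genes tested (9.05% higher and 6.63% lower). Fitm2, which partitions triglyceride into droplets, rose by 0.69 (SE 0.12; adjusted p = 0.0109, limma), Syncrip, an RNA-binding partner of the Apob mRNA editing complex, rose by 0.54 (SE 0.09; adjusted p = 0.00853, limma) and Vapa, a membrane tether of the endoplasmic reticulum, by 0.25 (SE 0.07; adjusted p = 0.0428, limma) on the log2 scale. Vapa passed in 9 of 19 other settings, and Fitm2 and Syncrip in all 19. Dgat2, which makes the triglyceride that enters VLDL, was at 73.2, 82.7, 102 and 91.1 FPKM in METTL3-HKD livers and at 113, 132, 135 and 132 FPKM in METTL3-Flox livers. The groups were apart, and the log2 fold change was -0.56 (SE 0.12; adjusted p = 0.0187, limma), which did not pass with libraries scaled to reads on genes (-0.34, adjusted p = 0.0912), nor without METTL3-HKD 2 or METTL3-Flox 3. Sar1b, Surf4 and Tm6sf2, which act in the export or lipidation of VLDL, had log2 fold changes of -0.05, -0.10 and -0.36 that did not pass. For Tm6sf2, and for P4hb of the same list (-0.37, adjusted p = 0.110, limma), every METTL3-HKD liver lay below every METTL3-Flox liver. That pattern was seen in 9.95% of all genes tested.

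Genes that act on lipoproteins in plasma and at the cell surface moved in both directions. For the counts of this paragraph, the shares among all genes tested were 9.05% higher and 6.63% lower. Of 14 genes of plasma remodelling and HDL, 3 rose and 2 fell. Angptl4, an inhibitor of lipoprotein lipase, rose by 1.09 (adjusted p = 0.0343, limma), Pctp, which transfers phosphatidylcholine, by 0.92 (adjusted p = 0.0364, limma) and Abca1, which loads cholesterol onto apolipoprotein A-I, by 0.56 (adjusted p = 0.0413, limma) on the log2 scale. Lmf1, which matures lipases, fell by 0.57, and Gpld1, a phospholipase carried on HDL, fell by 0.39, and neither passed when libraries were scaled to reads on genes. The 3 rises rest on all livers, since leaving out any 1 liver except METTL3-HKD 4 left 0 or 1 gene of the list called higher. Among 10 receptor genes, Sorl1 (2.82, adjusted p = 0.00376, limma) and Vldlr (1.07, adjusted p = 0.0320, limma) rose, though from 0.253 and 0.0699 FPKM in METTL3-Flox livers. Vldlr reached the minimum for testing only through its METTL3-HKD livers (0.257 FPKM on average), so its call is no support for a rise. It had 7 to 67 reads a liver and passed in 10 of 18 other settings. Its log2 fold change also depends on the 0.1 FPKM added, which exceeds its METTL3-Flox level. Lsr, the lipolysis-stimulated receptor, fell by 0.56 and Lrpap1, a receptor chaperone, by 0.36, and on reads on genes Lrpap1 did not pass. Of 27 transcription factors and coregulators known to act on apolipoprotein genes, 5 fell and 0 rose, with a median of -0.30. They were Mlxipl (-1.03), Nr1h4, the bile acid receptor FXR (-0.92), Cebpa (-0.91), Hnf4a (-0.48) and Rxra (-0.45), of which Hnf4a and Rxra did not pass with reads on genes, and 2 of the 27 were called without METTL3-HKD 2, METTL3-Flox 3 or METTL3-Flox 4. Cebpa was at 67.7, 112, 117 and 94.6 FPKM in METTL3-HKD livers and at 169, 189, 169 and 196 FPKM in METTL3-Flox livers, with no overlap.

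**Figure D5:**
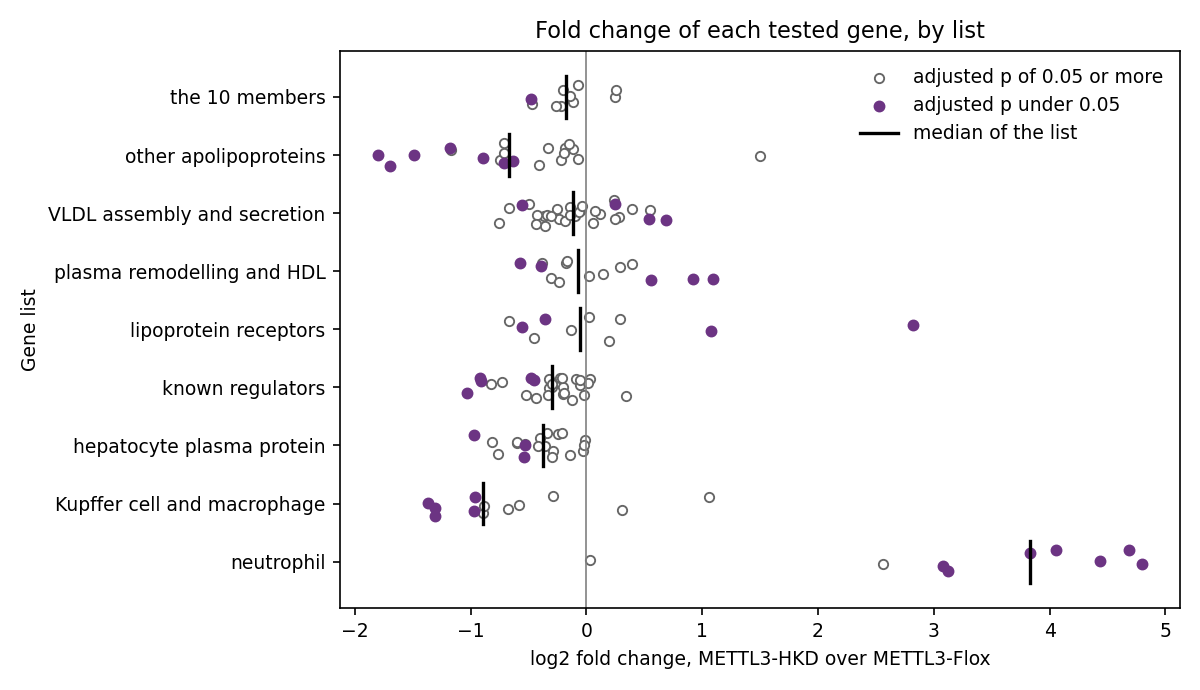
Log2 fold change of METTL3-HKD over METTL3-Flox livers for each tested gene, by list; filled points have an adjusted p under 0.05 (limma), open points do not, and the black bar is the median of the list. The 10 members have a median of -0.17 and 1 filled point, other apolipoproteins have 7 filled points at or below -0.63, and neutrophil genes lie far to the right.

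Cell markers moved beside these results. With the FPKM as deposited, 9.05% of all genes tested were called higher and 6.63% lower. Of 20 other plasma protein genes of the hepatocyte, 3 were called lower (Vtn, F2 and Plg) and 0 higher, and all 20 had negative log2 fold changes with a median of -0.38. With libraries scaled to reads on genes, 15 were negative and 5 positive, with a median of -0.16 and 2 called lower. Their summed level was 57664 to 78777 FPKM in METTL3-HKD livers and 74319 to 109036 FPKM in METTL3-Flox livers. Of 9 neutrophil genes, 7 were higher and 0 lower, with sums of 330.03 to 1623 FPKM against 12.9 to 45.04 FPKM. Ly6g, among these 7, averaged 0.0374 FPKM in METTL3-Flox livers and reached the minimum for testing through the METTL3-HKD livers alone. Of 12 Kupffer cell and macrophage genes, 5 were lower and 0 higher (232 to 462 against 346 to 733 FPKM), and with libraries scaled to reads on genes 0 were lower and 1 higher. Of 10 sinusoidal endothelial genes, 3 were lower and 0 higher (75.8 to 85.2 against 89.0 to 97.6 FPKM), with 1 lower when libraries were scaled to reads on genes. Of 10 stellate cell genes, 2 were higher and 2 lower (62.3 to 83.1 against 61.0 to 133 FPKM), with 2 higher and 1 lower on that scaling. Of 6 cholangiocyte genes tested, 4 were higher and 0 lower (124 to 372 against 56.6 to 82.9 FPKM), with 5 higher on that scaling. None of these lists had a gene at 0 in all livers. The intestine also makes Apoa1, Apoa4, Apob and Mttp. Of 9 genes of its epithelium, Alpi, Sis, Cdx1 and Cdx2 were at 0 in all 8 livers, Vil1, Lct and Muc2 were below the minimum for testing but above 0 in some livers, and 0 of the 2 tested (Fabp2 and Apobec1) were called. The summed level of the list was 54.7 to 71.4 FPKM in METTL3-HKD livers and 55.6 to 79.9 FPKM in METTL3-Flox livers, most of it Fabp2 at 52.1 and 59.0 FPKM on average. The part of the cell makeup in the values of the 10 genes was not tested, and in whole liver fewer hepatocytes and less mRNA per hepatocyte cannot be told apart.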

How the data were processed

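Libraries had been prepared from whole-liver RNA with a SMARTer mRNA kit, 4 METTL3-HKD and 4 METTL3-Flox, and all 8 were used with the groups of their labels. The authors deposited FPKM per gene for the whole series with the gene length used. The aligner, counter, annotation and strand setting are not given in the sources used here, and the submitters' processing notes name GRCm38 and mm10. FPKM times gene length and a library size gave whole reads for 100% of values above 0 (tolerance 0.01 reads), with 15861245 to 18434488 reads on genes per library. These library sizes did not equal the reads on genes, so the FPKM were already scaled between libraries. METTL3-HKD 1 had a size of 20114825 against 17237993 reads on genes, and METTL3-Flox 1 had 14210943 against 16914680. Computing median-of-ratios scaling on the deposited FPKM gave 1.0063 for each library, so the FPKM already stood on that scale. The table has 0 columns without a sample and no fold changes of the authors.

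Genes averaging 0.1 FPKM or more were tested on log2(FPKM + 0.1) with limma 3.58.1 (eBayes with trend, two-sided, no covariates) under R 4.3.3, and p-values were adjusted by Benjamini-Hochberg over the 16645 genes. A gene was called at an adjusted p under 0.05. Fold changes are on that log2 scale. The test was tried on simulated data. Single values were compared by exact permutation in scipy 1.17.1. No pairing was taken from the replicate numbers. Alternatives were a pseudocount of 1 FPKM, minima of 1 FPKM and none, 3 other scalings, no trend, array weights, a block on replicate number, protein-coding genes alone, voom on the rebuilt reads and each liver left out. Each liver is taken as 1 animal. Exact permutation p-values rest on these livers alone. The limma p-values and intervals rest on a variance between livers drawn towards that of genes at a similar level. Without the trend, the SE was 0.20 for Apoa1 and 0.12 for Apoa2, against 0.25 and 0.21 with it. The genes and lists were chosen with earlier results of these data known, so their counts are no independent support. All 10 genes are named. From each list, at most 6 called genes per direction were named, largest first. A few genes were chosen after their values were seen (Apon, Saa1, Saa2, Apoc2, Sar1b, Surf4, Tm6sf2 and P4hb). Sequences were read from RefSeq tables of GRCm38.p6.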

Additional observations from a re-analysis of the deposited data

Results flagged for a closer look

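Apoa4 in METTL3-Flox 4 stood at 254 FPKM, while the other 3 METTL3-Flox livers were at 146, 146 and 129 FPKM, so that its distance to the nearest liver exceeded the 95% limit of Dixon's test for a group of 4. That test was applied to the 10 genes in both groups, 20 groups in all, and singled out 1 of them, where chance alone would single out about 1 in 20.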

How the results depend on the processing

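Over 19 alternatives for each of the 10 genes, 173 of 190 values kept direction and side of the threshold. The remainder were 12 settings in which Lcat no longer passed, which took the count of genes called lower from 1 to 0, and 5 changes of sign. Part of the 173 could not have differed. Median-of-ratios scaling used a factor of 1.0063 for every liver and repeated the main fit. The changes of minimum, trend, block and gene type left each log2 fold change as it was, so its direction could not turn. Lcat did not pass with no minimum level (-0.48, adjusted p = 0.0792), with libraries scaled to reads on genes (-0.27, 0.0899) or to reads outside the 100 top genes (-0.40, 0.0574), or without the trend (-0.48, 0.0561). With 1 liver left out its log2 fold change ran from -0.54 to -0.40, and the count of genes called lower was 0 or 1. Scaling to reads on genes turned Apob to 0.0979, Apoc1 to 0.0145, Apoc3 to 0.0714 and Mttp to 0.138, and scaling to reads outside the 100 top genes turned Mttp to 0.00300, which the construction of these scalings accounts for, as they moved the median over all genes by 0.20 and 0.07. None of the 10 genes was called higher in any of these settings. With a replicate block, Lcat was -0.48 with adjusted p = 0.115, and genes called over all genes tested were 971 higher and 645 lower, against 1506 and 1104. Same-numbered livers had correlations of -0.08 to 0.07 in their deviations. These showed no pairing by number, though so few livers cannot exclude one. Scaling to reads on genes gave 2310 higher and 374 lower calls over all genes. Leaving out single livers, an alternative added for the ratios after the data were seen, moved the log2 ratio of Apoa5 over Apoa4 from -0.17 to 0.14 and turned no other ratio. Over the 19 settings, calls lower ranged from 0 to 3 for VLDL assembly genes, 0 to 2 for plasma remodelling, 0 to 3 for receptors, 2 to 7 for regulators, 0 to 4 for hepatocyte plasma proteins and 0 to 7 for Kupffer cell genes, and calls higher from 2 to 3 for VLDL assembly, 0 to 3 for plasma remodelling, 1 to 3 for receptors and 6 to 8 for neutrophil genes. Depth did not limit the 10 genes, and 4 livers a group leave the intervals given with each.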
